A study of Mus musculus with 2 samples.

Results

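Of the 628 genes in the deposited expression table, 116 (18.5%) were expressed more than 2-fold and at most 4-fold higher in brown adipose tissue of 3bKO than of fl/fl, after genes that are best known from obese fat had been set aside by name. These 116 are the less familiar part of a moderate difference: receptors and actin regulators of leukocytes, fibrillar matrix and its processing enzymes, muscle-type cytoskeleton and chaperones, secreted signals, and small sets of retinoid, mitochondrial and microtubule genes. They were chosen by the ratio of the 3bKO value to the fl/fl value in this table, so their ratios are given as a description and nothing is tested with them. In all, 148 genes had a ratio in that range (23.6% of the table), and 32 of them, such as the collagen I chains, histocompatibility genes and known lipid-associated macrophage genes, were left out by name.

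RNA-seq was performed on 2 libraries of whole brown adipose tissue, 1 from fl/fl and 1 from 3bKO. Both came from C57BL/6 animals given a high-fat diet (60% fat) for 20 weeks, which the control therefore shares. In fl/fl tissue the Dnmt3b gene carries loxP sites but is intact, whereas in 3bKO tissue Dnmt3b, a DNA methyltransferase that places new methyl groups, is meant to be deleted by Cre. The study's mouse model uses Cre driven by the Ucp1 promoter, active in brown and beige adipocytes, so that the other cells of the tissue should keep the gene. The labels give no Cre line and no sex, and the title of the deposited table sets Myf5 against D3b. The paper also describes earlier mice in which Myf5-driven Cre deleted Dnmt3b in the shared lineage of brown fat and skeletal muscle. Which Cre line these libraries represent is therefore not known, and the direction of every ratio rests on the column headings. Dnmt3b is not among the genes analysed here, so the deletion could not be checked in these libraries.

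With 1 library per group there is no replicate error, and each ratio compares these 2 libraries and not the genotypes. No p-value, standard error or interval could be given. Levels are in FPKM, fragments per kilobase of transcript scaled to the mapped fragments of the library, so levels of different genes can be compared per length within a library. The tissue was sequenced in bulk, so a larger number of cells of a type and more RNA per cell cannot be told apart for any gene below.

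Brown fat is more than its thermogenic adipocytes. It holds blood vessels, nerves, fibroblasts that deposit collagen, and macrophages that clear dying adipocytes and accumulate in obesity. Its adipocyte precursors share a developmental lineage with skeletal muscle, and the interscapular depot lies against muscle, so muscle transcripts can reach a dissected sample. Much of what is known of fat inflammation and fibrosis rests on a few marker genes, while the receptors, cytoskeletal regulators and matrix enzymes that work beside them are seldom described.

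The promoters below are shown because they display the features counted further on: a purine-rich core that PU.1 and other ETS factors bind in myeloid genes (GAGGAA), a CArG box, the element of serum response factor in muscle genes, and a promoter with many and one with no CpG sites. Each is the 250 bases before a transcription start in RefSeq GRCm38.p6, read 5′ to 3′ on the strand of the gene. For Clec12a and Myom1 the start used lies inside the annotated gene (chr6:129349783-129365303 and chr17:71003332-71126856), not at its outer end. Capitals mark GAGGAA, or its reverse complement TTCCTC, in Cd53, Clec12a and Dock2, the CArG box in Myom1, and every CpG in Sema3c; Col3a1 has no CpG in these 250 bases and so no capitals. Cd53 (chr3:106790150-106790399, minus strand), Clec12a (chr6:129349994-129350243, plus strand), Dock2 (chr11:34783906-34784155, minus strand), Myom1 (chr17:71019307-71019556, plus strand), Col3a1 (chr1:45311288-45311537, plus strand) and Sema3c (chr5:17574566-17574815, plus strand) read as follows.
Cd53: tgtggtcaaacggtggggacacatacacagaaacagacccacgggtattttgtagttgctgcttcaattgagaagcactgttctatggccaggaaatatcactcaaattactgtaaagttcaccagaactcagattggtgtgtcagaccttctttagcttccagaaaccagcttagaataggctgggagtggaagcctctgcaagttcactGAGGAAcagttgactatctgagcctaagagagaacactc
Clec12a: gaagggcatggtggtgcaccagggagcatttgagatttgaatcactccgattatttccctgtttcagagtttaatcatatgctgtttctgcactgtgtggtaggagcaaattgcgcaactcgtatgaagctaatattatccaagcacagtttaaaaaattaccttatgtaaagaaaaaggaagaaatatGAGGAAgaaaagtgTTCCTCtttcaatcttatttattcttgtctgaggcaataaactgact
Dock2: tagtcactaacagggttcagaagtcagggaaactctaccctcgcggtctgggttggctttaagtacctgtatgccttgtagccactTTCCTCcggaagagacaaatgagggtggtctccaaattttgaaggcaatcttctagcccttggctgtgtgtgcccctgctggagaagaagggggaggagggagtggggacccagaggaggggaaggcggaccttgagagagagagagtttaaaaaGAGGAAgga
Myom1: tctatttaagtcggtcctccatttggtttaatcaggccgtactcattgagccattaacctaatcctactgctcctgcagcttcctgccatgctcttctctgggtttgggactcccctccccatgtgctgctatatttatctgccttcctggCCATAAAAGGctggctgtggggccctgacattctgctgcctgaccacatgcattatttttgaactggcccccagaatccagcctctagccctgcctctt
Col3a1: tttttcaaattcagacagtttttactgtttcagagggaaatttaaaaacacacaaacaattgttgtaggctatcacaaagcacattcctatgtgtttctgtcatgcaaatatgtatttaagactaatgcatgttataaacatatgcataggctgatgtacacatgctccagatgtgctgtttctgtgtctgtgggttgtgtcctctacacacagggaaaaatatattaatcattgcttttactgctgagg
Sema3c: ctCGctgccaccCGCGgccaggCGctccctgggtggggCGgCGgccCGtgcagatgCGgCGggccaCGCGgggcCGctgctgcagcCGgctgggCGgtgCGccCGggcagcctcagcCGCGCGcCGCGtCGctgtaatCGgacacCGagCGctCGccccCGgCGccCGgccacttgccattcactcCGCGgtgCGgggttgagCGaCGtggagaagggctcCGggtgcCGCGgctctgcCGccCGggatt

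The 116 members were mostly genes of low to moderate level. Their median was 3.37 FPKM in fl/fl (lowest 0.3, highest 83.2), compared with 8.56 FPKM in 3bKO (lowest 1.09, highest 261), and 108 of them reached at least 1 FPKM in both libraries. The median ratio was 2.39 (log2 1.26), and 92 of the members lay under 3-fold and 67 under 2.5-fold. They differed in level from the 148 genes over 4-fold higher, which had a median of only 0.46 FPKM in fl/fl, with 114 under 1 FPKM and 20 at 0.01, the lowest value in the table. The 216 genes higher by 2-fold or less had a median of 10.5 FPKM in fl/fl. By fl/fl median the members sat between these classes. The fl/fl level is the denominator of the ratio that sorts the classes, so this order is a description and no separate result. The same holds below wherever larger ratios are set beside low fl/fl levels. In the whole table, 296 genes (47.1%) were more than 2-fold higher and 512 (81.5%) were higher at any ratio, with a median log2 ratio of 0.96 over all 628 genes. Every count of list genes given below is to be read against these shares.

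**Figure D1:**
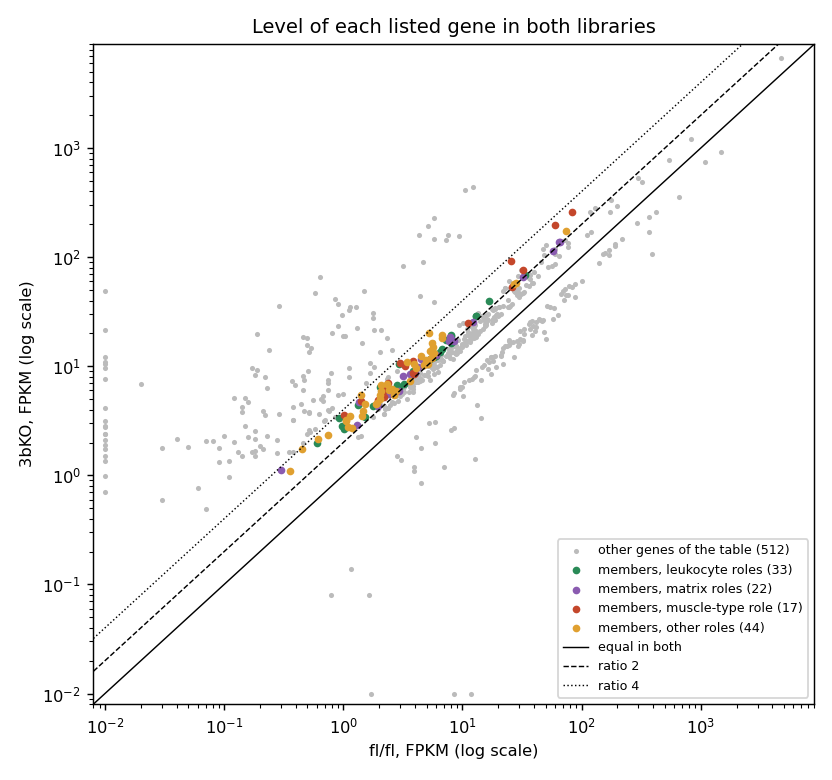
Level of each of the 628 listed genes in fl/fl (x axis) and in 3bKO (y axis), in FPKM on log axes; each point is 1 gene, colored points are the 116 members by role, and the lines mark equal values, a ratio of 2 and a ratio of 4. The members fill the band between the lines for 2 and 4 from 0.3 to 83.2 FPKM in fl/fl, and no gene of the table lies on the line of equality because the table lists only selected genes.

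The bounds of the range cut through a continuous series of ratios. Just inside the upper bound were Cyp26b1 (3.86), the pseudogene Znf41-ps (3.84), Atp5g1 (3.84) and Adamts15 (3.77). Just outside it were Dpysl3 (4.04), Egr2 (4.33) and Ptpro (4.34). At the lower bound, Galnt15, Tgfbi and Plekho2 had a ratio of 2.01 and Bgn 2.03, whereas Cyba (14.5 and 29.1 FPKM), Prcp (3.61 and 7.22 FPKM) and Daglb (2.92 and 5.81 FPKM), all at or under 2, fell just outside. Rounding of the deposited values to 2 decimals moved no member across a bound.

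Leukocyte genes formed the largest group of roles, with 33 members and a median ratio of 2.37 (2.05 to 3.63), of which 28 had a ratio of at most 3. Roles were assigned after the values were seen. Of a list of 148 leukocyte signalling genes, 20 were in the table, all 20 had the higher value in 3bKO (12 beyond 2-fold), and 11 are members. Beside them, the summed level of 24 macrophage markers was 422 FPKM in fl/fl against 914 FPKM in 3bKO, with all 24 higher and 19 of them between 1.5-fold and 2.5-fold; the part of these markers in the members' ratios was not tested. By contrast, of 42 lymphocyte genes only Thy1, which fibroblasts also express, was in the table (summed level 7.72 and 14.5 FPKM), and of 26 mast cell and granulocyte genes none was. Since the table lists selected genes, a gene that is not in it may still be expressed.

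Among the complement, lysosomal and antigen-processing members the levels were highest for C1qa, a chain of the complement protein C1q that tissue macrophages secrete, at 33.5 FPKM in fl/fl against 68.6 FPKM in 3bKO (2.05-fold). The other chains of the same protein fell just below 2-fold, C1qb with 36.5 and 70.4 FPKM (1.93-fold) and C1qc with 39.7 and 73.5 FPKM (1.85-fold), so the boundary of the range splits a single complex whose 3 genes had close ratios. Laptm5, a lysosomal membrane protein of blood cells that helps to degrade immune receptors, stood at 12.9 and 28.9 FPKM (2.24-fold). Ctsh, a lysosomal cysteine protease, had 7.97 and 16.5 FPKM (2.07-fold). Psmb8, a catalytic subunit of the immunoproteasome, which cuts proteins into peptides for class I molecules, had 6.48 and 13.6 FPKM (2.09-fold). The remaining members of this role were expressed at lower levels. Pld4, an endosomal enzyme that digests nucleic acid, had 3.86 and 9.05 FPKM (2.34-fold). Nrros, which limits reactive oxygen and holds latent TGF-beta on myeloid cells, had 1.76 and 4.34 FPKM (2.47-fold). Slc37a2, a sugar phosphate transporter found in macrophages, had 1.02 and 2.66 FPKM (2.61-fold). Across the 3 lysosomal list members (Ctsh, Laptm5 and Slc37a2) and the rest of that list, 6 of 67 genes were in the table and all 6 were higher, as were 81.5% of all listed genes.

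Surface receptors made up 16 members, and receptors with inhibitory and activating roles were both present. Tyrobp, the adaptor that carries the activation signal of many myeloid receptors, had the highest level of them, 16.8 FPKM in fl/fl against 40.0 FPKM in 3bKO (2.38-fold). Receptors that restrain myeloid cells had similar ratios: Lilrb4a had 8.03 and 19.2 FPKM (2.39-fold), and Fcgr2b, the inhibitory receptor for IgG, had 7.28 and 17.3 FPKM (2.38-fold). Pirb, which recognizes class I molecules, had 5.78 and 12.2 FPKM (2.11-fold), and Clec12a, an inhibitory lectin that senses dead cells, had 2.37 and 6.32 FPKM (2.67-fold). The ratios of the 4 inhibitory receptors ran from 2.11 to 2.67, on both sides of that of the activating adaptor, within the bounds set by the rule. Genes with activating roles were set aside by name, such as Fcgr3 (9.43 and 23.85 FPKM), Fcer1g (13.38 and 30.68 FPKM), Trem2 (2.37 and 7.95 FPKM) and Clec7a (4.53-fold). The members therefore give no balance of inhibitory and activating genes. Pirb and Lilrb4a belong to families with near-identical copies, so their reads may be shared with relatives.

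The receptors with the largest ratios were among those expressed least in fl/fl. P2ry6, which senses UDP from damaged cells, had 1.33 and 4.41 FPKM (3.32-fold), Siglec1, the sialic acid lectin of macrophages also called sialoadhesin, had 0.6 and 1.98 FPKM (3.30-fold), and C3ar1, the receptor for the complement fragment C3a, had 2.05 and 6.45 FPKM (3.15-fold). No other leukocyte receptor among the members exceeded 3-fold. Receptors for cytokines were closer to 2-fold. Csf2ra, the ligand-binding chain of the GM-CSF receptor, had 6.0 and 12.3 FPKM (2.05-fold), and Tnfrsf1b, a receptor for TNF, had 2.42 and 5.56 FPKM (2.30-fold). Of the genes for adhesion and membrane organization, Itgb2, the beta chain shared by the leukocyte integrins, had 5.37 and 11.6 FPKM (2.15-fold), Cd44, the hyaluronan receptor, had 2.46 and 5.88 FPKM (2.39-fold), and Cd53, a tetraspanin of blood cells, had 2.85 and 6.76 FPKM (2.37-fold). Cd24a, a small lipid-anchored glycoprotein that also marks early adipocyte progenitors in mice, had 2.15 and 5.73 FPKM (2.67-fold). Evi2a lies within an intron of Nf1 and had 2.38 and 5.88 FPKM (2.47-fold). For comparison, Ptprc, which encodes CD45 and is found on all leukocytes, was not a member, at 4.01 and 7.21 FPKM (1.80-fold).

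Most of the leukocyte members inside the cell act on actin or on small GTPases. Lcp1, which bundles actin filaments, mainly in blood cells, had 13 FPKM in fl/fl against 28.7 FPKM in 3bKO (2.21-fold). Capg, which caps filament ends, had 7.94 and 18.9 FPKM (2.38-fold), Cotl1, a filament-binding protein, had 8.14 and 16.8 FPKM (2.07-fold), and Twf2, which binds actin monomers, had 6.79 and 14.3 FPKM (2.11-fold). These 4 actin-binding proteins were the most abundant of the role. The regulators upstream of actin were lower in level: Nckap1l, the blood cell subunit of the WAVE complex, had 2.96 and 6.29 FPKM (2.12-fold), Apbb1ip, which links Rap GTPases to integrin activation, had 3.22 and 6.95 FPKM (2.16-fold), and Dock2, the Rac activator that lymphocytes and macrophages need to migrate, had 1.53 and 3.43 FPKM (2.24-fold). Cyth4, an activator of ARF GTPases, stood apart from them with 2.93 and 10.4 FPKM (3.55-fold). A pair of genes of inflammatory signalling were near the low end in fl/fl. Tnfaip2, a gene induced by TNF, had 0.92 and 3.34 FPKM (3.63-fold), the largest ratio among the leukocyte members. Ikbke, a kinase of the NF-kappaB and interferon pathways that has been linked to obesity in mice, had 0.97 and 2.82 FPKM (2.91-fold).

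**Figure D2:**
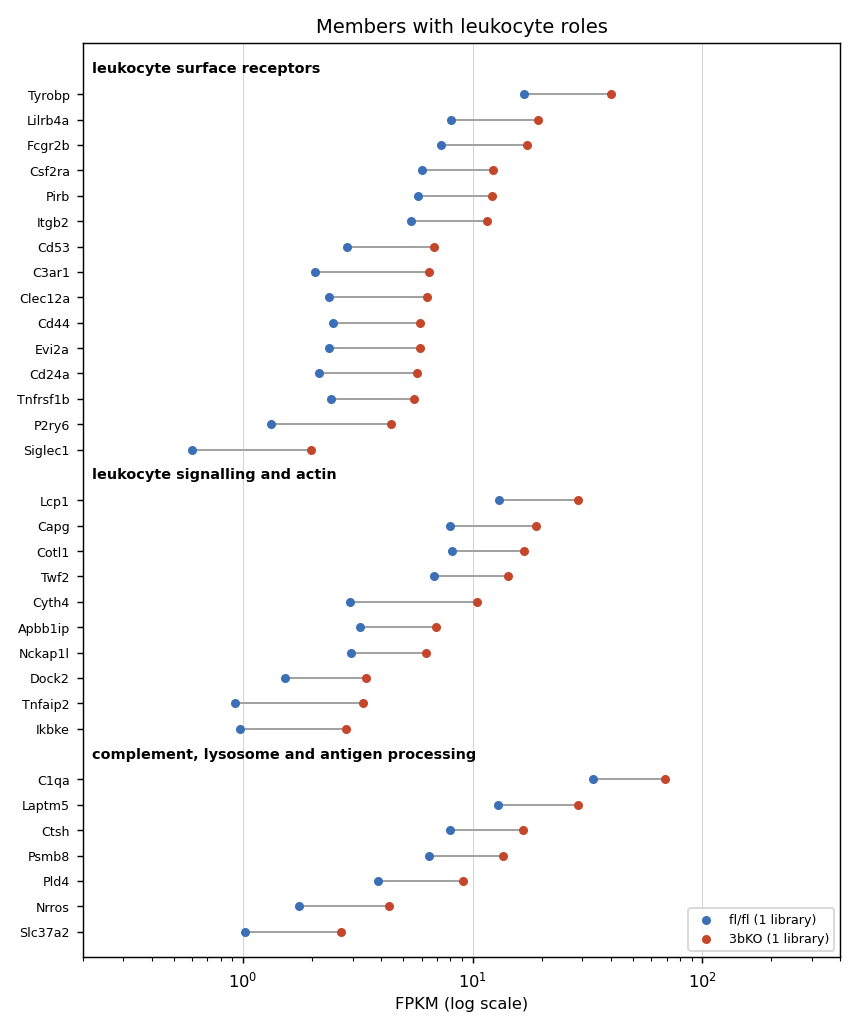
Levels of 32 members with leukocyte roles in FPKM (x axis, log scale), with the fl/fl library as a blue point and the 3bKO library as a red point joined by a line, grouped by role and ordered by the 3bKO level. Levels run from C1qa (33.5 and 68.6 FPKM, 2.05-fold) down to Siglec1 (0.6 and 1.98 FPKM, 3.30-fold), and the longest line belongs to Tnfaip2 (0.92 and 3.34 FPKM).

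Matrix genes gave 22 members, 13 structural proteins and 9 proteases or inhibitors, with a median ratio of 2.23. Of 68 genes on the list of fibrillar and other collagens, 19 were in the table, 18 higher and 1 lower, and 10 were over 2-fold. Of 82 proteoglycan and matricellular genes, 16 were in the table, all 16 higher and 8 over 2-fold. Of 64 matrix proteases and inhibitors, 16 were in the table, 15 higher and 8 over 2-fold, and all 8 are members. Beside these, 14 of 16 fibroblast markers were in the table, all 14 higher, with a summed level of 300 FPKM in fl/fl against 589 FPKM in 3bKO; 4 of them are members (Col3a1, Lum, Pi16 and Fbn1), and whether the markers account for the rest was not tested.

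The ratios of the structural members were close to each other, with none over 2.60. Col3a1, the chain of collagen III, had 64.1 FPKM in fl/fl against 138 FPKM in 3bKO (2.16-fold). Pcolce, which speeds the removal of the procollagen tail that precedes fibril assembly, had 66.4 and 138 FPKM (2.09-fold), so that a collagen and its processing helper stood at almost the same level in both libraries. Bmp1, the protease that Pcolce assists, was not a member at 4.77 and 8.36 FPKM (1.75-fold), and Adamts2, which removes the other procollagen end, was just short at 3.49 and 6.9 FPKM (1.98-fold). Col5a2, whose protein starts fibrils and limits their width, had 7.65 and 17.1 FPKM (2.23-fold), while its partner chain Col5a1 had 6.24 and 12.1 FPKM (1.94-fold). Small proteoglycans that coat fibrils were among the abundant members: Bgn (biglycan) had 57 and 115 FPKM (2.03-fold) and Lum (lumican) had 12.2 and 25.3 FPKM (2.08-fold). Tgfbi, a collagen-binding protein induced by TGF-beta, had 8.44 and 16.9 FPKM (2.01-fold), the smallest ratio of the role.

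Proteins of microfibrils and of the cell surface completed the structural set. Fbn1, the main protein of elastic microfibrils and the precursor of the fasting hormone asprosin, had 3.6 and 8.42 FPKM (2.34-fold), and Emilin1, found where elastin meets microfibrils, had 1.96 and 4.36 FPKM (2.22-fold). The microfibril-associated genes Mfap2 and Mfap4 were outside the range, with ratios of 11.03 and 7.19 from 0.38 and 0.52 FPKM in fl/fl. Aebp1, a secreted collagen-binding protein that promotes the myofibroblast state, had 4.45 and 11.6 FPKM (2.60-fold), the largest ratio of the structural members. Gpc3, a heparan sulfate proteoglycan anchored to the membrane, had 3.18 and 8.22 FPKM (2.58-fold). Mrc2, a receptor with which fibroblasts take up collagen for degradation, had 2.93 and 5.95 FPKM (2.03-fold). Fndc1 (2.58 and 5.65 FPKM, 2.19-fold) and Egflam (1.3 and 2.91 FPKM, 2.24-fold), a matrix ligand of dystroglycan, were the remaining ones.

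Among proteases and their inhibitors, Serpinf1, which encodes the serpin PEDF secreted by adipocytes and fibroblasts, was highest in level, with 32.4 FPKM in fl/fl against 66.1 FPKM in 3bKO (2.04-fold). Gelatinase A, encoded by Mmp2, had 7.79 and 18.7 FPKM (2.40-fold), Mmp28, another secreted metalloproteinase, had 4.22 and 9.82 FPKM (2.33-fold), and Plau, the urokinase that activates plasminogen, had 4.75 and 10.8 FPKM (2.27-fold). Membrane-bound enzymes were similar. Anpep, an aminopeptidase known as CD13, had 6.04 and 12.6 FPKM (2.09-fold), and Adam8, a sheddase of myeloid cells, had 2.44 and 5.53 FPKM (2.27-fold). Pi16, a marker of fibroblast progenitors around vessels, had 4.0 and 8.61 FPKM (2.15-fold). The only matrix members above 3-fold were both poorly expressed in fl/fl. Cpxm1, a secreted carboxypeptidase-like protein that binds collagen, had 1.36 and 4.75 FPKM (3.49-fold), and Adamts15, which cleaves aggrecan and versican, had 0.3 and 1.13 FPKM (3.77-fold), the lowest fl/fl level of all members.

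Secreted signals and their receptors comprised 11 members with a median ratio of 2.91, and 4 of the 11 exceeded 3-fold. Rarres2, which encodes the adipokine chemerin, a chemoattractant for macrophages and dendritic cells, had the third highest level of all members in 3bKO, with 74.1 FPKM in fl/fl against 173 FPKM in 3bKO (2.33-fold). Anxa1, an inhibitor of neutrophil recruitment, had 26.9 and 56.7 FPKM (2.11-fold). Ccl21a, the chemokine of lymphatic endothelium that guides dendritic and T cells, had 5.55 and 16.2 FPKM (2.91-fold), but the Ccl21 genes are near-identical copies, and the assignment of reads to this copy is uncertain. Guidance cues were represented by Slit3, which in mouse fat is known as a signal for nerve and vessel growth, with 5.52 and 11.9 FPKM (2.16-fold), and by Sema3c with 1.88 and 4.5 FPKM (2.39-fold). Aplnr, the apelin receptor of endothelium, had 4.94 and 11.4 FPKM (2.31-fold). With Synpo2 it is a member of the endothelial and mural list, of which 4 of 35 genes were in the table, all higher (summed level 57.8 and 117 FPKM).

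The signals over 3-fold were low in level. Paqr7, a membrane receptor for progestins, had 2.08 FPKM in fl/fl against 6.73 FPKM in 3bKO (3.24-fold). Il16, whose product attracts CD4+ cells, had 0.74 and 2.36 FPKM (3.19-fold). Inhbb, the subunit that forms activin B, had 1.05 and 3.2 FPKM (3.05-fold), and Boc, a coreceptor for Hedgehog ligands, had 1.14 and 3.48 FPKM (3.05-fold). Cdon, the closest relative of Boc, was not a member, at 4.11 and 7.18 FPKM (1.75-fold), and Fstl1, a secreted follistatin-like protein that binds TGF-beta family ligands, was at 16.1 and 27.4 FPKM (1.69-fold). Ccn2, the matricellular factor induced by TGF-beta and YAP, had 2.34 and 6.9 FPKM (2.95-fold). Whole signalling lists were thinly represented: 2 of 54 TGF-beta, BMP and activin genes, 2 of 76 Wnt, Hedgehog and Notch genes and 7 of 116 growth factor, hormone and receptor genes were in the table, and each list gave 1 member. Of 51 chemokine and cytokine genes, 5 were in the table and 3 are members, Ccl21a and Il16 among them.

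**Figure D3:**
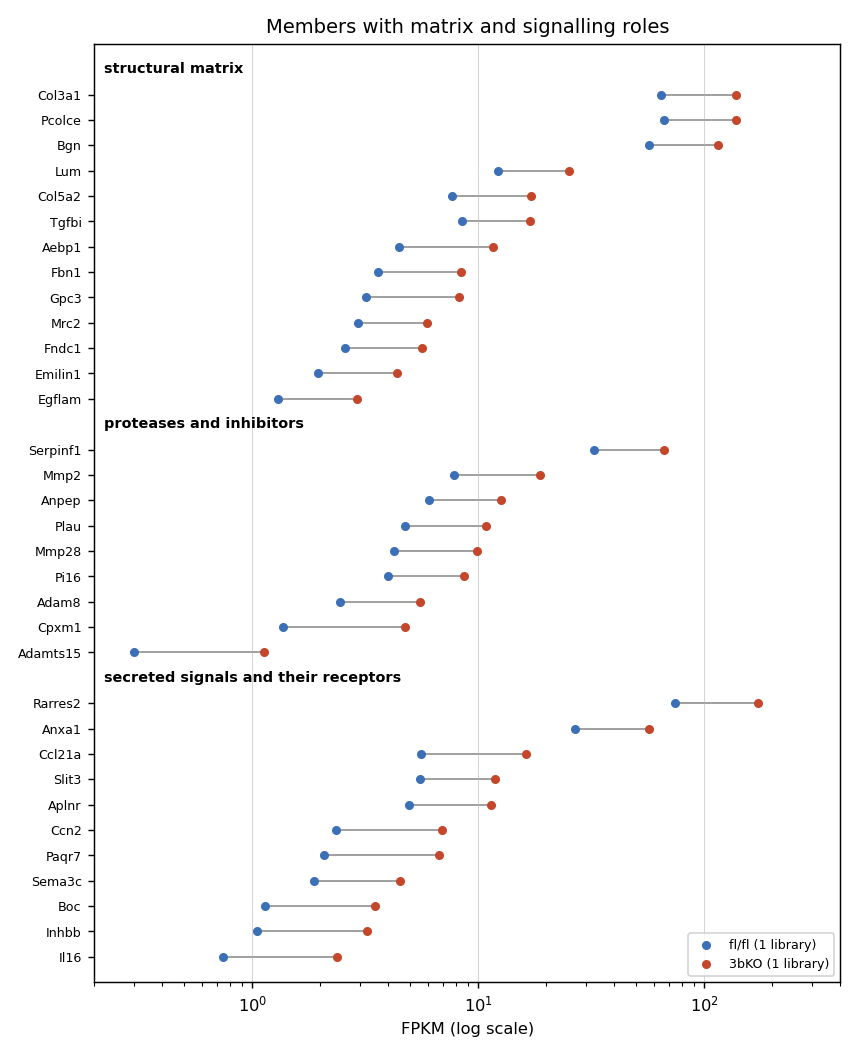
Levels of the 33 members that are structural matrix proteins, proteases and inhibitors, or secreted signals and their receptors, in FPKM (x axis, log scale), with fl/fl in blue and 3bKO in red joined by a line. Matrix proteins such as Col3a1 (64.1 and 138 FPKM) have short lines with no ratio over 2.60, and the longest line belongs to Adamts15 (0.3 and 1.13 FPKM).

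Muscle-type cytoskeleton and chaperone genes gave 17 members with a median ratio of 2.91, and 7 of them were over 3-fold. Their place within the muscle genes of the table was at the low end of the ratios, because the rule keeps members at or under 4-fold. Of 95 skeletal muscle markers, 73 were in the table and all 73 had the higher value in 3bKO (70 beyond 2-fold), with a median log2 ratio of 4.77 over the 66 that are not members. The summed level of the 73 was 329 FPKM in fl/fl against 3539 FPKM in 3bKO, and 8 of them were at the lowest value of the table in fl/fl. The 7 members on that list (Ankrd23, Myom3, Mustn1, Myl1, Smyd1, Jph1 and Myom1, in order of ratio) held ranks 4 to 10 counted from the lowest ratio, above only Srl, Des and Mb. The bounds of the rule place listed members in a single block of ranks, so these ranks describe the selection. Whether muscle fibres in the 3bKO sample account for the ratios of the members was not tested.

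Several of these members were already expressed well in fl/fl. Tpm1, a tropomyosin that is made by striated and smooth muscle and in other forms by most cells, had 83.2 FPKM in fl/fl against 261 FPKM in 3bKO (3.13-fold), the highest level of all members, while the muscle tropomyosin Tpm2 had 9.32 and 157 FPKM (16.88-fold). Myl1, an alkali light chain of fast myosin, had 59.4 and 199 FPKM (3.35-fold). It ranked second by fl/fl level among the 73 muscle markers, whereas Mylpf, the regulatory light chain of the same fast fibres, had 4.28 and 159 FPKM (37.12-fold). The light chains of the fast myosin thus had similar levels in 3bKO and differed by more than 10-fold in fl/fl. Ankrd23, a stretch-responsive protein that binds titin, had 26.1 and 53.5 FPKM (2.05-fold).

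Small heat shock proteins of muscle were the next most abundant. Hspb6, a chaperone of smooth and striated muscle, had 25.8 FPKM in fl/fl against 93.2 FPKM in 3bKO (3.61-fold), the largest ratio of the role. Cryab, the alpha-B crystallin that protects desmin filaments, had 32.1 and 76.3 FPKM (2.38-fold). Hspb7, a cardiac and skeletal member of the same family, was far outside the range, with 1.03 and 18.9 FPKM (18.39-fold). Other stress genes did not share the direction: the inducible chaperones Hspa1b (3.94 and 1.19 FPKM) and Hsph1 (40.6 and 21.2 FPKM) were lower in 3bKO. Of 59 stress and protein folding genes, 4 were in the table, 2 higher and 2 lower. Hspb6 overlaps Lin37, and Cryab overlaps Hspb2, in RefSeq, and the sources used here do not say whether reads were counted by strand.

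The M band of the sarcomere, where thick filaments are joined, was represented by Myom1 (3.0 and 10.8 FPKM, 3.59-fold) and Myom3 (1.94 and 4.93 FPKM, 2.54-fold). Smyd1, a methyltransferase needed for thick filament assembly, had 1.4 and 4.82 FPKM (3.44-fold). Jph1, which holds the calcium store of muscle against the transverse tubule, had 1.01 and 3.61 FPKM (3.57-fold), and Mustn1, a small protein of muscle and skeleton, had 3.82 and 11.1 FPKM (2.91-fold). The rest are a mixed set. Synpo2, an actin-bundling protein of Z-discs and smooth muscle, had 3.31 and 10.1 FPKM (3.05-fold), Synm, an intermediate filament partner of desmin, had 3.89 and 8.52 FPKM (2.19-fold), and desmin itself (Des), set aside by name, had 45.7 and 89.6 FPKM (1.96-fold). The LIM proteins Fhl3 (2.21 and 6.02 FPKM, 2.72-fold) and Lmcd1 (3.83 and 8.68 FPKM, 2.27-fold) act at actin filaments and in transcription. Sh3bgr (2.39 and 7.09 FPKM, 2.97-fold), Smtnl2 (2.21 and 5.24 FPKM, 2.37-fold) and Pde4dip, a centrosome and Golgi scaffold abundant in muscle (11.1 and 24.8 FPKM, 2.24-fold), were the others.

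Genes of the retinoid pathway included both a synthetic and a degrading enzyme. Aldh1a1, which oxidizes retinaldehyde to retinoic acid and is known in mice to shape the white or brown state of fat, had 4.5 FPKM in fl/fl against 12.4 FPKM in 3bKO (2.76-fold). Cyp26b1, which breaks down retinoic acid, had 1.4 and 5.4 FPKM (3.86-fold), the largest ratio of all 116 members. Dhrs3, which turns retinaldehyde back into retinol, was not a member at 36.9 and 68.2 FPKM (1.85-fold). Of 40 genes of retinoid-related families, a group chosen after the values were seen, 5 were in the table and 4 were higher. Other enzymes had closer ratios. Gstp2, a glutathione transferase with a near-identical copy in Gstp1, had 5.65 and 14.9 FPKM (2.64-fold), Cyp1b1, which hydroxylates steroids and fatty acids, had 2.42 and 6.07 FPKM (2.51-fold), Gdpd5, a phosphodiesterase of glycerolipids, had 1.45 and 3.91 FPKM (2.70-fold), and Plcd3, a phospholipase C, had 2.05 and 5.0 FPKM (2.44-fold). Of 131 genes of lipid and steroid metabolism, 13 were in the table, 8 higher and 5 lower, and only 3 (Aldh1a1, Cyp1b1 and Cyp26b1) are members.

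The mitochondrial members were few and each stood largely alone in its family. Atp5g1, a gene for the c subunit of the ATP synthase ring, whose amount limits the enzyme in brown fat, had 5.28 FPKM in fl/fl against 20.2 FPKM in 3bKO (3.84-fold). Of 109 genes for respiratory chain and ATP synthase subunits, a family counted after the values were seen, the table held only Atp5g1 and the muscle form Cox6a2, which had 0.9 and 37.0 FPKM (41.12-fold). Other Atp5g genes encode the same mature protein, and pseudogenes resemble Atp5g1, so its value may share reads with copies. Slc25a12, the aspartate and glutamate carrier of excitable tissues, had 2.04 and 5.46 FPKM (2.68-fold), and of 47 carriers of its family 3 were in the table, all higher. Nnt, the proton-driven transhydrogenase that makes NADPH in mitochondria, had 0.61 and 2.14 FPKM (3.51-fold). C57BL/6J mice are known to carry a deletion within Nnt that other C57BL/6 substrains lack; the labels name no substrain, and whether the animals differed at Nnt was not tested.

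Transcription regulators among the members were Egr1, Eya2 and Tbx15. Egr1, an immediate early factor induced by growth factors and handling, had 6.77 FPKM in fl/fl against 18.2 FPKM in 3bKO (2.69-fold). Immediate early genes outside the range had larger ratios, with Fos at 0.74 and 7.54 FPKM (10.19-fold), Fosb at 0.67 and 5.34 FPKM (7.97-fold) and Egr2 at 0.46 and 1.99 FPKM (4.33-fold), but Nr4a1 was lower in 3bKO, with 17.4 and 8.53 FPKM. A difference in how the tissue was taken cannot be told apart from the genotype with 1 library each. Eya2, a transcriptional coactivator in muscle development, had 3.42 and 10.9 FPKM (3.20-fold). Tbx15, which marks brown and some white depots and controls glycolytic muscle fibres, had 1.9 and 4.58 FPKM (2.41-fold). Of 159 transcription and chromatin genes, 11 were in the table, 10 higher and 1 lower, beside 81.5% higher in the whole table.

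Microtubule, ion pump and protocadherin genes gave 6 members with a median ratio of 2.72. Tppp3, which promotes tubulin polymerization and marks cells of tendon sheaths and fibroblast progenitors, had 6.7 FPKM in fl/fl against 19.3 FPKM in 3bKO (2.88-fold). Stmn1, which destabilizes microtubules and is high in proliferating cells, had 5.76 and 13.2 FPKM (2.30-fold). Of 76 cell cycle and DNA replication genes only 1 (Dnmt3a, the other de novo methyltransferase, summed level 3.82 and 6.2 FPKM) was in the table. A gene that is not in this selected list may still be expressed, and proliferation was not tested. Kif21b, a kinesin of neurons and lymphocytes, had 0.36 and 1.09 FPKM (3.03-fold), the lowest 3bKO level of all members. Fxyd6, a regulator of the sodium pump first described in brain, had 2.07 and 5.98 FPKM (2.89-fold). Of 56 nerve and Schwann cell genes, the table held only Fxyd6 and Cryab, which muscle also expresses. Pcdh7, an adhesion molecule, had 1.18 and 2.73 FPKM (2.31-fold). Pcdhga10 had 1.09 and 2.79 FPKM (2.56-fold), while Pcdhga1, which is spliced to the same constant exons, had 0.79 and 0.08 FPKM; genes of this cluster overlap, and the sources used here do not say how their reads were divided.

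The 15 members with other or unclear roles had a median ratio of 2.35. S100a6, a calcium-binding protein of fibroblasts and dividing cells, was the most abundant, with 28.2 FPKM in fl/fl against 57.9 FPKM in 3bKO (2.06-fold). Hrct1 (5.34 and 13.7 FPKM, 2.57-fold), Nek6, a kinase of mitosis (5.46 and 11.9 FPKM, 2.18-fold), Cdsn, an adhesive protein of the skin (3.93 and 10.6 FPKM, 2.69-fold), Galnt15, which starts O-linked sugar chains (5.17 and 10.4 FPKM, 2.01-fold), and Lhfpl2 (4.77 and 10.3 FPKM, 2.16-fold) followed. Apobec1, the cytidine deaminase that edits apolipoprotein B mRNA, had 4.07 and 9.56 FPKM (2.35-fold). Of the scavenger receptor genes, Scarf2 had 1.06 and 3.13 FPKM (2.95-fold) and Scara3 had 1.43 and 3.52 FPKM (2.46-fold). Those below 10 FPKM in 3bKO also included Plekho2 (3.66 and 7.35 FPKM), Gask1b (2.56 and 6.16 FPKM), Neurl3 (2.79 and 5.94 FPKM) and Ccdc88c (2.67 and 5.46 FPKM), with ratios from 2.01 to 2.41. The uncharacterized gene 6430571L13Rik had 1.53 and 4.52 FPKM (2.95-fold), and Znf41-ps, a transcribed pseudogene and the only member that is not protein coding, had 0.45 and 1.73 FPKM (3.84-fold).

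**Figure D4:**
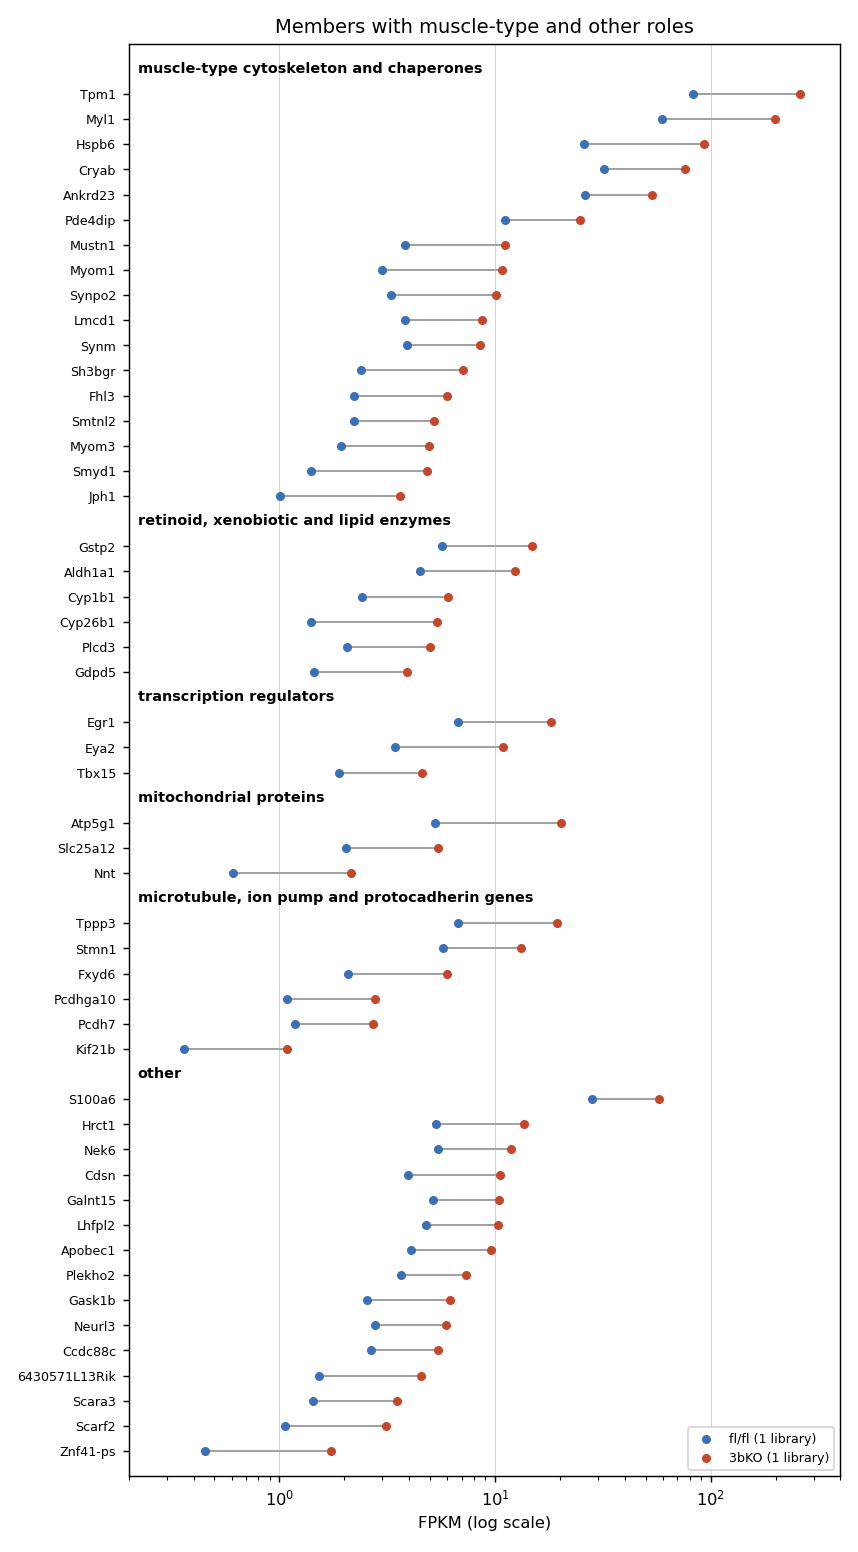
Levels of the 50 members with muscle-type, enzyme, transcription, mitochondrial, microtubule and other roles in FPKM (x axis, log scale), with fl/fl in blue and 3bKO in red joined by a line. Tpm1 (83.2 and 261 FPKM) and Myl1 (59.4 and 199 FPKM) lie at the top of the range, and Kif21b (0.36 and 1.09 FPKM) at its bottom.

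Ratios of the roles overlapped. Medians were 3.51 for the 3 mitochondrial genes, 2.91 for muscle-type genes and for secreted signals, 2.23 for matrix and 2.37 for leukocyte roles. Of the 24 members over 3-fold, 7 were muscle-type genes, 5 had leukocyte roles, 4 were secreted signals or receptors, 2 were matrix genes and 2 mitochondrial genes, and the other 4 had other roles. In summed level the muscle-type members weighed most, with 267 FPKM in fl/fl against 789 FPKM in 3bKO, followed by structural matrix with 236 and 499 FPKM, out of 1005 and 2459 FPKM over all members. In all, 72 members belong to at least 1 of the gene lists and 44 to none. Of the lists not yet described, 66 phagocytic receptor and complement genes gave 19 in the table (17 higher, 5 members), 96 actin, tubulin and motor genes gave 15 (14 higher, 5 members), 55 interferon and antigen-processing genes gave 6 (all higher, 1 member) and 66 adhesion genes gave 3 (all higher, 2 members). No member was on the lists of 158 ion channels and transporters (7 in the table), 98 genes of amino acid, sugar and redox metabolism (10 in the table) or 73 small GTPases and regulators (1 in the table). These lists are not complete: the members Slc37a2 and Slc25a12 are transporters, and Dock2 and Cyth4 activate small GTPases. Tpm1 and Myl1 together with Rarres2 held the 3 highest levels in 3bKO. Beside these ratios, brown adipocyte markers went the other way, with 6 of 18 in the table and all 6 lower in 3bKO (summed level 1481 and 972 FPKM, Dio2 among them with 48.02 and 20.64 FPKM). Ucp1 and Cidea, which define brown adipocytes best, are not among the genes analysed here, so the tissue label was checked through those 6 genes alone. Of 17 white adipocyte markers 6 were in the table, 5 higher (4 of them beyond 2-fold) and 1 lower, with a median log2 ratio of 1.18. Their summed level was 671 and 715 FPKM, and the lower gene, Cfd (386.94 and 107.67 FPKM), made up most of the fl/fl sum. FPKM is a share of each library, so a larger share for muscle transcripts lowers the share of all others, and the size of this shift was not measured because the table holds selected genes only.

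Members lay on 20 chromosomes, and 6 pairs of neighbours were found within 300 kb of each other in GRCm38.p6. Col3a1 (chr1:45311538-45349706) and Col5a2 (chr1:45374331-45503282) are 24.6 kb apart with no protein-coding gene between them. The ratios of these adjacent collagen genes were 2.16 and 2.23. Stmn1 (chr4:134468320-134473843) and Paqr7 (chr4:134496761-134510237), 22.9 kb apart, had ratios of 2.30 and 3.24, and Anxa1 (chr19:20373434-20390671) and Aldh1a1 (chr19:20492583-20643463), 101.9 kb apart, had ratios of 2.11 and 2.76, again with no protein-coding gene between. In the other pairs, Tyrobp with Hspb6, Neurl3 with Ankrd23 and Apobec1 with C3ar1, 8, 6 and 5 protein-coding genes lie between, and none of them is in the table. In all, 42 members overlap another annotated gene, and 9 overlap a protein-coding gene (Hspb6, Aebp1, Pcdhga10, Evi2a, Plcd3, Cryab, Rarres2, Mmp28 and Dock2).

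The CpG content of the promoters was examined because DNA methyltransferases act on CpG sites, and the ratio rule did not use sequence. The ratio of observed to expected CpG sites was counted from 250 bases before to 50 bases after the start of each protein-coding gene in NCBIM37 (mm9), and 114 of the 116 members (98.3%) had such a window. Members had a median of 0.40 (quartiles 0.23 and 0.70), and 36.0% of them were over 0.6. Promoters of the genes over 4-fold higher were poorer in CpG, with a median of 0.32 and 18.2% over 0.6, and those of genes higher by 2-fold or less were richer, with 0.52 and 44.3%. Genes lower in 3bKO had 0.69 and 60.7%, and all 22373 protein-coding promoters had 0.55 and 46.1%. The members thus lay between the more and the less strongly differing classes. Within the members, leukocyte promoters had a median of 0.30 (21.2% over 0.6), matrix promoters 0.35 (36.4%), muscle-type promoters 0.44 (41.2%) and the other roles 0.57 (45.2%). In the counted windows the ratio ran from 0.00 for Col3a1 and Siglec1 to 1.03 for Jph1. The value of a gene depends on the annotated start and the window: Col3a1 has no CpG in the counted window or in the RefSeq sequence printed above, whereas Sema3c has 9 sites and a ratio of 0.68 in the counted window but 39 sites and a ratio of 1.02 in the printed sequence. These are counts of sequence letters, no methylation was measured in these libraries, and whether CpG content bears on the expression ratios was not tested.

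**Figure D5:**
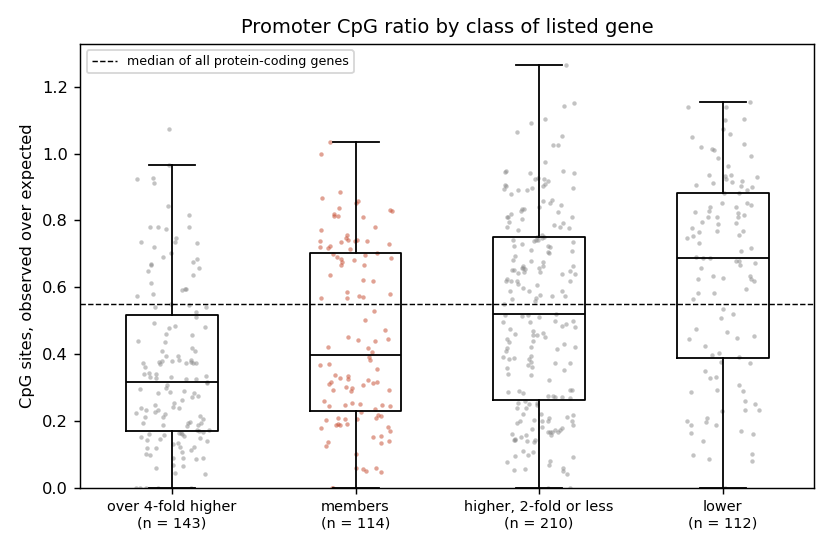
Observed over expected CpG ratio of the promoter window (y axis) for genes over 4-fold higher (n = 143), the members (n = 114), genes higher by 2-fold or less (n = 210) and genes lower in 3bKO (n = 112); each point is 1 gene, boxes give the median and quartiles, whiskers reach the farthest point within 1.5 times the box height, and the dashed line is the median of all protein-coding genes (0.55). The medians are 0.32, 0.40, 0.52 and 0.69 from left to right, and each class spans nearly the whole range.

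Short motifs were searched on both strands of the same windows, and matches of different motifs did not overlap in any member. The GAGGAA core was found in 14 of the 33 leukocyte promoters (42.4%), including Cd53, Clec12a and Dock2 printed above, in 37 of 114 member promoters (32.5%) and in 27.8% of all protein-coding promoters. In the printed RefSeq sequence of Cd53 the match lies 39 bases before the start, in Clec12a there are matches 61 and 47 bases before the internal start used, and in Dock2 at 164 and 9 bases. The other leukocyte genes with this core in the mm9 windows were Cotl1, Csf2ra, Ctsh, Cyth4, Evi2a, Ikbke, Nckap1l, Pirb, Pld4, Tnfrsf1b and Tyrobp. Which genes hold it depends on the annotated start and on the window, since in the RefSeq sequences Laptm5 and Cd44 have the core and Cyth4 and Pld4 do not. A CArG box was found in 4 member promoters (3.5%, against 1.5% of all), namely Egr1, Gstp2, Lmcd1 and Myom1. In the printed sequence of Myom1 it lies 99 bases before the internal start used. The E box CAGCTG, of the type bound by myogenic factors, was in 17.5% of member promoters, in 4 of 17 muscle-type promoters (23.5%), in 38.5% of the promoters of genes over 4-fold higher and in 15.3% of all. The AP-1 element TGANTCA was in 11.4% of members and 6.9% of all, and the TATA box TATAAA in 11.4% and 13.5%. A match describes letters in this window and is no evidence of binding, and a window without one says only that these letters are not in it.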

How the data were processed

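Brown adipose tissue of fl/fl and 3bKO (1 library each) was sequenced as mRNA. The authors deposited FPKM values for 628 genes, a list of differentially expressed genes and the sources used here give neither its filter nor the depth. The submitters' processing notes name RSEM and the build mm10. The published methods describe a different route (mm9, RPKM, chow-fed mice), and these libraries were not matched to it. The lowest value, 0.01, was taken as a floor, and no member was at it.

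Identifiers were paired with RefSeq GRCm38.p6 symbols (627 of 628 matched). Members had a 3bKO to fl/fl ratio over 2 and at most 4, without the genes dropped by name. In that rule Col1* was read as a wildcard. Beside the collagen I chains it dropped Col14a1 (2.09 FPKM in fl/fl and 4.45 in 3bKO), Col15a1 (11.68 and 23.48) and Col18a1 (5.93 and 12.75). Members, gene lists and motifs were chosen with earlier results of these data known. Every member but 1, which is not reported here, could be named, and values were given by level, by ratio and next to the bounds. Other genes named were chosen after their values were seen. Promoter windows came from NCBIM37 (mm9) with GENCODE vM1, and printed sequences from RefSeq, which held 78 of the 116 members. Motif and CpG counting was tested on simulated data. Pseudocounts of 0.1 and 1, a minimum of 1 FPKM, other bounds and another CpG threshold were tried. Python 3.11.15, pandas 2.3.3, NumPy 2.4.6 and Matplotlib 3.10.9 were used.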

Additional observations from a re-analysis of the deposited data

How the results depend on the processing

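With a lower bound of 1.5 in place of 2 the number of genes was 266 in place of 116. With a CpG threshold of 0.75 in place of 0.6 the share of members above it was 14% in place of 36.0%. Among all protein-coding promoters that share was 32.7% in place of 46.1%. Under the other settings the number of genes lay between 92 (upper bound of 3) and 148 (no gene dropped by name). The median log2 ratio lay between 1.03 (pseudocount of 1) and 1.29 (without leukocyte members, added after seeing the data). It was 1.25 without muscle-type members, and reading Col1* as collagen I alone gave 119 genes, both also added after seeing the data. A pseudocount of 1 kept 70 of the 116 members in range, put 46 at or under 2-fold and moved 9 of 21 lists, among them the skeletal muscle markers from 7 to 17 genes. A pseudocount of 0.1 put 4 members at or under 2-fold. At least 1 FPKM in both libraries left 108 members and moved no list. No paired analysis was possible because each group has 1 library. The sources used here give no depth, so counting error could not be set beside the low values.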
